A study of Mus musculus with 4 samples.

Results

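Mmp7-positive cells with few defensins were selected in single-cell RNA sequencing data from mouse small-intestinal crypts by a rule on each cell's own molecule counts. A cell was a member when it held at least 3 Mmp7 UMIs (unique molecular identifiers, 1 for each captured RNA molecule), under 5% of its UMIs from Lyz1 and the Defa genes, and under 1% from the goblet genes Muc2, Tff3, Fcgbp, Zg16, Clca1 and Agr2. It also held at most 2 UMIs of the proliferation genes Mki67, Top2a, Ube2c, Ccnb1, Cenpa, Birc5 and Cdk1, and none of the leukocyte gene Ptprc. The rule found 242 members among 12285 kept cells, which is 1.97% (exact binomial 95% interval 1.73 to 2.23). Of these, 17 came from syngeneic library 1, 9 from syngeneic library 2, 130 from allogeneic library 1 and 86 from allogeneic library 2.

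Crypts were taken 7 days after bone marrow transplantation from female C57BL/6 recipients aged 8 to 12 weeks that had all been lethally irradiated. The 2 syngeneic libraries came from C57BL/6 recipients of C57BL/6 marrow, which the labels call controls, and the 2 allogeneic libraries from C57BL/6 recipients of BALB/c marrow, labelled as having graft-versus-host disease. Each library pooled 3 to 4 mice, so an animal cannot be told apart from its pool. For comparisons between the groups, p values measure the spread between 2 pools a group. For comparisons between cell classes, they measure how the difference within a library varies over the libraries. The library names also carry the letters KO, which the labels do not explain, and no genotype is assumed here. All groups share the irradiation, and no unirradiated crypts were analysed here.

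Mmp7 encodes matrilysin, a secreted metalloproteinase that in mouse Paneth cells cuts the precursors of the alpha-defensins (the Defa genes, also called cryptdins) into their active form. A mature Paneth cell at the crypt base carries lysozyme (Lyz1), many defensins, the lectin Itln1 and the ribonuclease Ang4, and it supplies Wnt3 and epidermal growth factor to neighbouring Lgr5-positive stem cells. Goblet cells, the other granule-bearing lineage that needs the transcription factor Atoh1, make the mucin Muc2 and can express Retnlb, and Reg4 marks deep-crypt secretory cells. In graft-versus-host disease, donor T cells release interferon-gamma, which acts on crypt epithelium and is known to induce antigen presentation genes, guanylate-binding proteins and the chemokines Cxcl9 and Cxcl10.

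The upstream sequences of 3 genes are shown because the results turn on the gene that selects the cells, Mmp7, and on interferon-inducible genes that were higher in allogeneic members, here Cxcl10, a T-cell attracting chemokine, and Bst2, the antiviral membrane protein tetherin. Each line gives the 250 bases before the RefSeq transcription start (build GRCm38.p6), on the strand of the gene, in lower case with the searched motifs in capitals. The capitals mark TGANTCA (bound by AP-1, the Jun and Fos family) and 2 copies of GAAA spaced by 2 bases (an interferon-response element core); N is any base, and both strands were searched. A Tcf motif of the Wnt pathway was searched as well and has no match in these 3 windows.
Mmp7, chr9:7691840-7692089, plus strand: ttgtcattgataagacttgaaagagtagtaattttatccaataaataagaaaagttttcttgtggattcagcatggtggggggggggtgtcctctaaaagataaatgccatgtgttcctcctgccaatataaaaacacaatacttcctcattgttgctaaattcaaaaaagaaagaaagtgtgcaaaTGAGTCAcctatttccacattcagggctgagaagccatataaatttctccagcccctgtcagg
Cxcl10, chr5:92348890-92349139, minus strand: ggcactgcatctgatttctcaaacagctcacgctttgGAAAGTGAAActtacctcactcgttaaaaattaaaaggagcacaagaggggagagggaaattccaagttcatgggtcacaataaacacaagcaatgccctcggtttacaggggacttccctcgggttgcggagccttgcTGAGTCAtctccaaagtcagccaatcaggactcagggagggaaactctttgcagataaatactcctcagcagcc
Bst2, chr8:71537473-71537722, minus strand: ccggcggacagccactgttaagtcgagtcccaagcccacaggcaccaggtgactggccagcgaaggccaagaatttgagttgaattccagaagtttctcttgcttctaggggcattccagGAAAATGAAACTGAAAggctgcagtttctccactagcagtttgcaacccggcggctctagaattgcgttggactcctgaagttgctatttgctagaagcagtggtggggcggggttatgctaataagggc
In the Mmp7 window the AP-1 letters TGAGTCA start 63 bases before the transcription start, and the interferon element letters do not occur. In the Cxcl10 window GAAAGTGAAA starts 213 bases and TGAGTCA 74 bases before the start. The Bst2 window holds GAAAATGAAA at 130 bases and GAAACTGAAA at 124 bases before the start, and these 2 matches overlap. Among 32851 RefSeq windows of the 250 bases before a start, AP-1 occurs in 6.75%, the Tcf motif in 4.51% and the interferon element in 2.98%. A match describes the letters only.

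Depth set the precision of everything that follows. The kept libraries had a median of 3958 to 5188 UMIs per cell, and 11.2 to 27.2% of deposited barcodes were over the mitochondrial limit of 20%, the highest in allogeneic 1. The members' summed UMIs outside the rule genes came to 80002 in syngeneic 1, 32256 in syngeneic 2, 636974 in allogeneic 1 and 266829 in allogeneic 2. A count of 3 UMIs therefore stood for 37.5, 93.0, 4.71 and 11.2 CPM in the same order, and a gene under that level in a syngeneic sum was not detectable at this depth. Levels below are in CPM of the UMIs outside the 38 rule genes, summed over the cells of a class in a library and given in the order syngeneic 1, syngeneic 2, allogeneic 1, allogeneic 2. Genes of the rule are described without a test.

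Members had fewer UMIs than mature Paneth cells. Defensin-rich Paneth cells were taken as cells that met every other limit but carried at least 5% Lyz1 and Defa UMIs; 152, 145, 82 and 83 were found. Median UMIs per cell were 4990, 3279, 4324 and 2784 in members, against 8479, 8068, 6417 and 4571 in these Paneth cells. The median member mitochondrial share was 6.08, 10.5, 8.86 and 4.36%. Scrublet called 4 of the 242 members doublets, and no member barcode was shared with a member of another library.

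The members were chosen by measured values, their UMI counts of Mmp7 and of the defensin, goblet, proliferation and leukocyte genes of the rule. The median number of Mmp7 UMIs in a member was 5, 4, 7.5 and 9, and the highest was 62. Mmp7 stood at 1438, 2015, 2670 and 3294 CPM in members, below the 5755, 7236, 11701 and 12836 of defensin-rich Paneth cells in every library. Just outside the Mmp7 limit lay 54 cells with 2 UMIs, and just inside lay 36 cells with 3. The median share of Lyz1 and Defa UMIs was 0.233, 1.10, 0.0551 and 0.179% in members against 51.8, 53.7, 40.2 and 36.5% in the Paneth cells. Members were not crowded under the defensin limit, since 188 of them had less than 1% and only 6 had 4 to 5%, while 7 cells lay just outside at 5 to 6% and 402 were above 20%.

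**Figure D1:**
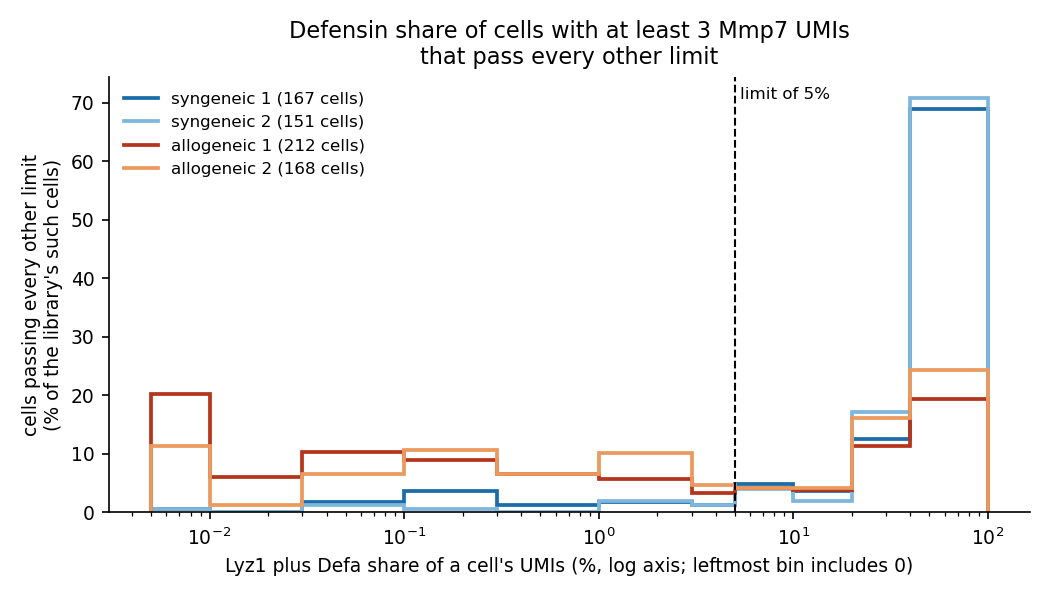
Share of Lyz1 and Defa UMIs (horizontal log axis, %) among cells with at least 3 Mmp7 UMIs that pass every other limit, as a percentage of such cells in each of the 4 libraries. The cells left of the dashed 5% limit are the members: 10.2 and 5.96% of these cells in the syngeneic libraries, and 61.3 and 51.2% in the allogeneic libraries.

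The other genes named for these cells, Reg4, Itln1 and Retnlb, were not shared by all members. A UMI of none of the 3 genes was found in 125 of the 242 members, and UMIs of all 3 were found in 13. By library, the members with none numbered 5 of 17, 3 of 9, 84 of 130 and 33 of 86. Retnlb, which encodes the antibacterial resistin-like molecule beta, had a UMI in 2, 0, 9 and 21 members, and Reg4, a secreted C-type lectin, in 35.3, 22.2, 10.0 and 15.1% of them. These shares were taken at the cells' own depth, and a cell without a UMI can still express the gene. The members are therefore called by their rule and given no cell type name.

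Mmp7 UMIs were also found in cells not known to make the enzyme, and the part of free RNA, doublets or expression in this was not tested. At least 3 Mmp7 UMIs were found in 1 of 9, 0 of 20, 9 of 154 and 4 of 105 Ptprc-positive cells with a T-cell receptor gene UMI, and in 0.394 to 1.40% of cells rich in enterocyte genes. The median depth of those T cells was 2693, 1350, 1879 and 2071 UMIs. Members held 0.213, 0.294, 1.11 and 0.653 Mmp7 UMIs for each Defa24 UMI, against 0.0123, 0.0132, 0.0281 and 0.0230 in defensin-rich Paneth cells. The ratio was 1, 0.0909, 0.183 and 0.548 in the T cells and 0.0536, 0.0447, 0.142 and 0.123 in the enterocyte-rich cells, so those cells too lay above the Paneth ratio. Both genes belong to the rule, and the ratio does not show where the members' Mmp7 came from.

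Members made up a larger share of the allogeneic libraries. They were 0.591% of kept cells in syngeneic 1 (exact binomial 95% interval 0.345 to 0.945), 0.365% in syngeneic 2 (0.167 to 0.691), 6.31% in allogeneic 1 (5.3 to 7.44) and 1.76% in allogeneic 2 (1.41 to 2.17). Both allogeneic values lay above both syngeneic values, and the allogeneic libraries also differed from each other beyond counting error. The means were 0.478 ± 0.160% and 4.03 ± 3.21% (SD, 2 libraries each), a ratio of 8.44, which was 3.69 without allogeneic 1 and 13.2 without allogeneic 2. The two-sided exact permutation test gave p = 0.33, the smallest p that 2 against 2 libraries allow, so the design cannot reach 0.05. Intervals cover counting error only.

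The same order held against the cells with at least 3 Mmp7 UMIs. There were 766, 680, 947 and 1193 such cells, and members were 2.22, 1.32, 13.7 and 7.21% of them. Among the cells that met every limit but the defensin one, members were 10.2, 5.96, 61.3 and 51.2%. Of the Mmp7-positive cells that were not members, 1088 failed only the proliferation limit (77, 40, 431 and 540 by library), 695 only the goblet limit and 456 only the defensin limit. With each cell thinned to 2000 UMIs, the rule found 18, 10, 143 and 130 cells, or 0.674, 0.455, 8.25 and 3.16% of the cells deep enough. The proliferation limit stayed at 2 UMIs, so a cycling cell passes it more easily when it is shallow or thinned. The part of this in the shares was not tested. A share of cells depends on which cells survive dissociation, and cell loss and a change in expression cannot be told apart here.

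Unsupervised clustering of all kept cells into 24 clusters spread the members over 14 of them, and 8 clusters held at least 10 members each, 226 in all. The largest group, 76 members, lay in cluster 18, which holds allogeneic cells only (12 and 64 members) and is led by Cxcl9, Cxcl10, Ido1, Iigp1, Gbp2 and Retnlb. Cluster 8, led by the crypt-base gene Olfm4, Clca3b and the stem cell regulator Ascl2, held 41 (6, 3, 32 and 0). Cluster 17, led by Ly6c1, Cxcl10, Cxcl9 and Ly6a, held 26 (1, 0, 14 and 11). Clusters 15 and 1, both with the immediate early genes Egr1, Jun and Atf3 among their leading genes, held 21 and 17 members, all from allogeneic 1. Cluster 4, led by goblet genes, held 17 (5, 3, 8 and 1), cluster 3, led by Reg4, Rnase1 and Defa17, held 16 (4, 1, 8 and 3), and cluster 14, led by the enteroendocrine hormone genes Nts and Gcg, held 12 (0, 0, 10 and 2). The clusters were built from the same genes, so these counts describe the members and test nothing.

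**Figure D2:**
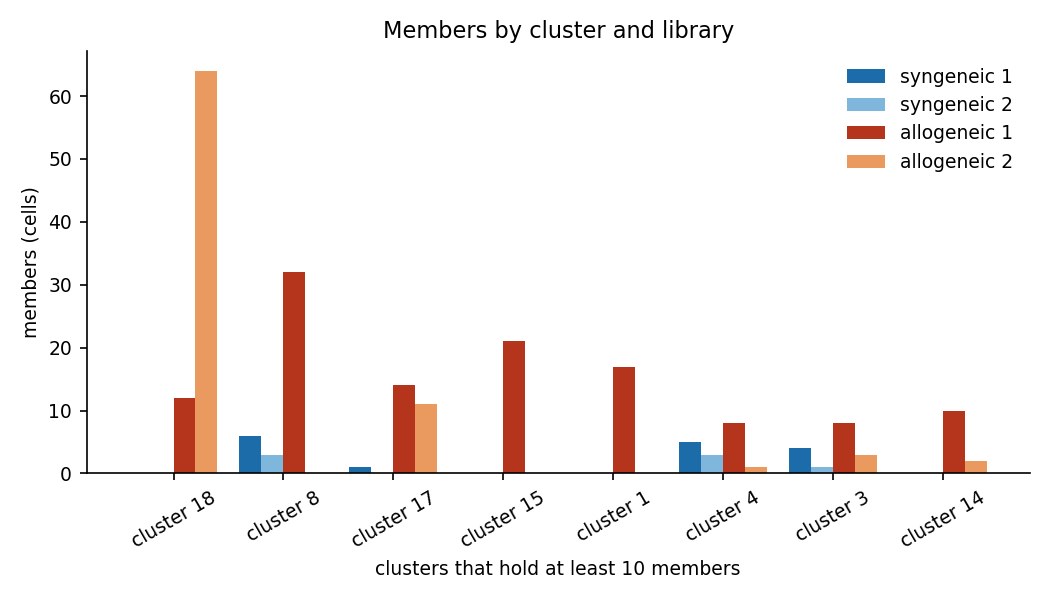
Number of members (vertical axis, cells) in each of the 8 clusters with at least 10 members, with 1 bar for each library. Allogeneic 2 has 64 of its 86 members in cluster 18, allogeneic 1 is spread over all 8, and the 26 syngeneic members lie mainly in clusters 8, 4 and 3.

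Member profiles differed between clusters by orders of magnitude. Members of cluster 3 carried Itln1 at 4854, Spink4, a secretory-granule trypsin inhibitor, at 16390, Retnlb at 716 and Reg4 at 679 CPM, and had a median of 22.5 Mmp7 UMIs. Members of cluster 8 carried Olfm4 at 5348 CPM with Itln1 at 70.4 and Spink4 at 111. Members of cluster 18 combined Spink4 at 6374 and Itln1 at 1572 with Ido1, a tryptophan-degrading enzyme, at 1084 and Cxcl9 at 870. Cluster 15 members held the stem cell receptor Lgr5 at 245, Olfm4 at 4987 and Egr1 at 699 CPM. In cluster 14 members the granin Chgb reached 9071 CPM, and in cluster 4 members the lectin Reg3b reached 12595. These are pooled values over the members of a cluster, with no spread.

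Mmp7 was also higher in the allogeneic cells of several of these clusters when all kept cells were counted, members or not. In cluster 8 it stood at 39.5, 25.3, 628 and 53.4 CPM, and at least 3 UMIs were found in 1.5, 0.763, 44.2 and 0% of cells; the 0% is of 23 cells. Thinned to 2000 UMIs the shares became 1.13, 0.287, 16.4 and 0%. Only allogeneic 1 was high in that cluster. In cluster 18 the allogeneic cells held 1615 and 1779 CPM, with 93.8 and 88.3% at 3 UMIs or more. In cluster 3 all libraries were high, from 4883 to 7747 CPM, and the groups overlapped. Clusters were drawn with Mmp7 among the usable genes, so these levels too are descriptions.

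**Figure D3:**
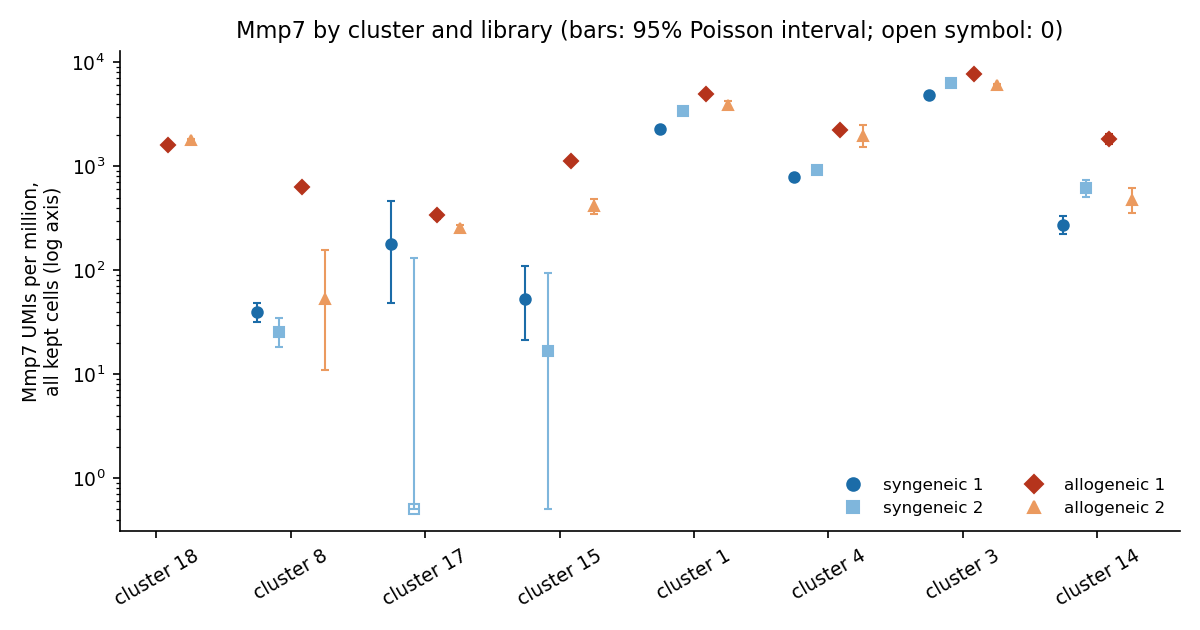
Mmp7 level (vertical log axis, CPM over all kept cells) in the 8 clusters with at least 10 members, by library with 95% Poisson intervals for counting error; the library without an Mmp7 UMI is drawn as an open symbol at the bottom. Cluster 8 is at 628 in allogeneic 1 against 39.5 and 25.3 in the syngeneic libraries, while cluster 3 is at 4883 or higher in all 4.

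Against defensin-rich Paneth cells of the same library, members had low levels of nearly the whole mature Paneth programme, also outside the rule genes. Adjusted p values here and below come from edgeR's quasi-likelihood test on summed counts with Benjamini-Hochberg adjustment, threshold 0.05. Of 3466 genes tested, 688 passed (19.8%), 280 higher (8.08%) and 408 lower (11.8%) in members. Of the 15 tested Paneth genes outside the rule, 14 were lower and 1, the metallothionein Mt1, was higher, with a median log2 difference of -3.82 against 0.01 over all genes. The rule removes cells rich in Lyz1 and Defa, so genes that go with them were bound to be lower to some degree, and the count is not independent of the rule. UMIs outside the rule genes were 98.4, 98.1, 99.0 and 98.4% of all UMIs in members and 47.2, 44.0, 54.3 and 52.7% in Paneth cells. The same share of all UMIs therefore gives a higher CPM in Paneth cells.

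The cryptdin-like genes that lack a Defa symbol were far lower. Gm14851 stood at 75.0, 93.0, 33 and 0 CPM in members and at 39958, 38450, 25220 and 10040 in Paneth cells. Its log2 difference was -9.99 (adjusted p = 3.2e-79), and all 5 tested genes of this kind were lower. These genes and the Defa genes are near-identical copies, and the counting may have split their reads. Mptx2, a mucosal pentraxin, stood at 12.5, 279, 36.1 and 18.7 in members and at 19811, 28132, 17363 and 9523 in Paneth cells, a difference of -8.98 (adjusted p = 1.8e-50). In each of the 4 libraries the member level of both genes lay far below the Paneth level.

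Itln1, the intelectin that binds microbial sugars, was lower as well. It stood at 3537, 1736, 783 and 1596 CPM in members and at 61780, 72207, 39219 and 34597 in Paneth cells, a log2 difference of -5.3 (adjusted p = 6.0e-49). The ribonuclease Ang4 stood at 50, 620, 330 and 986 against 16704, 13000, 21514 and 31596 (log2 difference -6.09, adjusted p = 0.0055). Reg4 stood at 237, 186, 87.9 and 105 against 1446, 1020, 1215 and 1592 (-3.82, adjusted p = 2.3e-42). Every member value of these 3 genes lay below every Paneth value. Retnlb stood at 200, 0, 48.7 and 236 against 320, 523, 1162 and 4886 and did not pass (-4.22, adjusted p = 0.062).

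As levels outside the rule genes, granule and secretory-stress genes followed the same direction. Of 21 tested goblet genes outside the rule, 12 were lower in members than in Paneth cells and none was higher. Mouse Paneth cells are known to express some of these genes. Spink4 stood at 7875, 5580, 2849 and 7226 CPM against 31699, 46931, 32969 and 78195 (-3.45, adjusted p = 7.0e-33). Klk1, a kallikrein protease, differed by -3.32 and the chemokine Ccl6 by -3.06. Atoh1, the transcription factor that sets the secretory fate, was at 87.5, 93.0, 48.7 and 124 in members and 126, 150, 87.8 and 174 in Paneth cells, a difference of -1.05 (adjusted p = 0.00067). Of 19 genes of the unfolded protein response and secretory folding, 13 were lower and none higher (median -0.83), among them Xbp1, the transcription factor of that response (-1.17, adjusted p = 6.3e-07), and the chaperone Hspa5 (-0.88). Of 18 early-response and heat-shock genes, 14 were lower, Egr1 by -1.71 and Fos by -1.25. As a share of all UMIs these last lists were higher in members in every library, while the goblet list stayed lower. The unfolded protein response list made up 0.364, 0.335, 0.345 and 0.600% in members and 0.261, 0.275, 0.258 and 0.290% in Paneth cells. The early-response list made up 0.133, 0.143, 0.384 and 0.353% against 0.0988, 0.0950, 0.283 and 0.255%.

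Several genes of DNA replication were higher in members. Of 9 tested S-phase genes, 5 were higher and none lower (median 0.99), including the replication helicase subunits Mcm5 (1.71) and Mcm6 (1.26). Stmn1, a microtubule regulator of dividing cells, was at 625, 899, 454 and 517 CPM in members and 316, 176, 84.9 and 174 in Paneth cells (log2 difference 1.35, adjusted p = 2.8e-10). The actin-linked gene Sh3bgrl3 was higher by 1.36 (337, 651, 540 and 1012 against 140, 146, 184 and 227). In each library both genes were higher in members than in Paneth cells. The rule allows at most 2 proliferation UMIs per cell in both classes, whatever the depth, and members had fewer UMIs per cell. The median of these UMIs was 0, 0, 1 and 1 in members and 0 in the Paneth cells of every library. The part of cycling cells in the differences was not tested. Of 12 stem cell genes tested, 1 was higher (Cdca7) and 1 lower (Ephb3), and Lgr5 did not pass at 175, 93.0, 111 and 7.50 against 81.9, 61.9, 93.7 and 53.5. No MHC class II gene of 8 passed, and of 18 MHC class I genes 2 were higher and 4 lower, B2m by -1.05. The count of calls depends on allogeneic 1, without which 236 of the genes tested passed in place of 688.

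**Figure D4:**
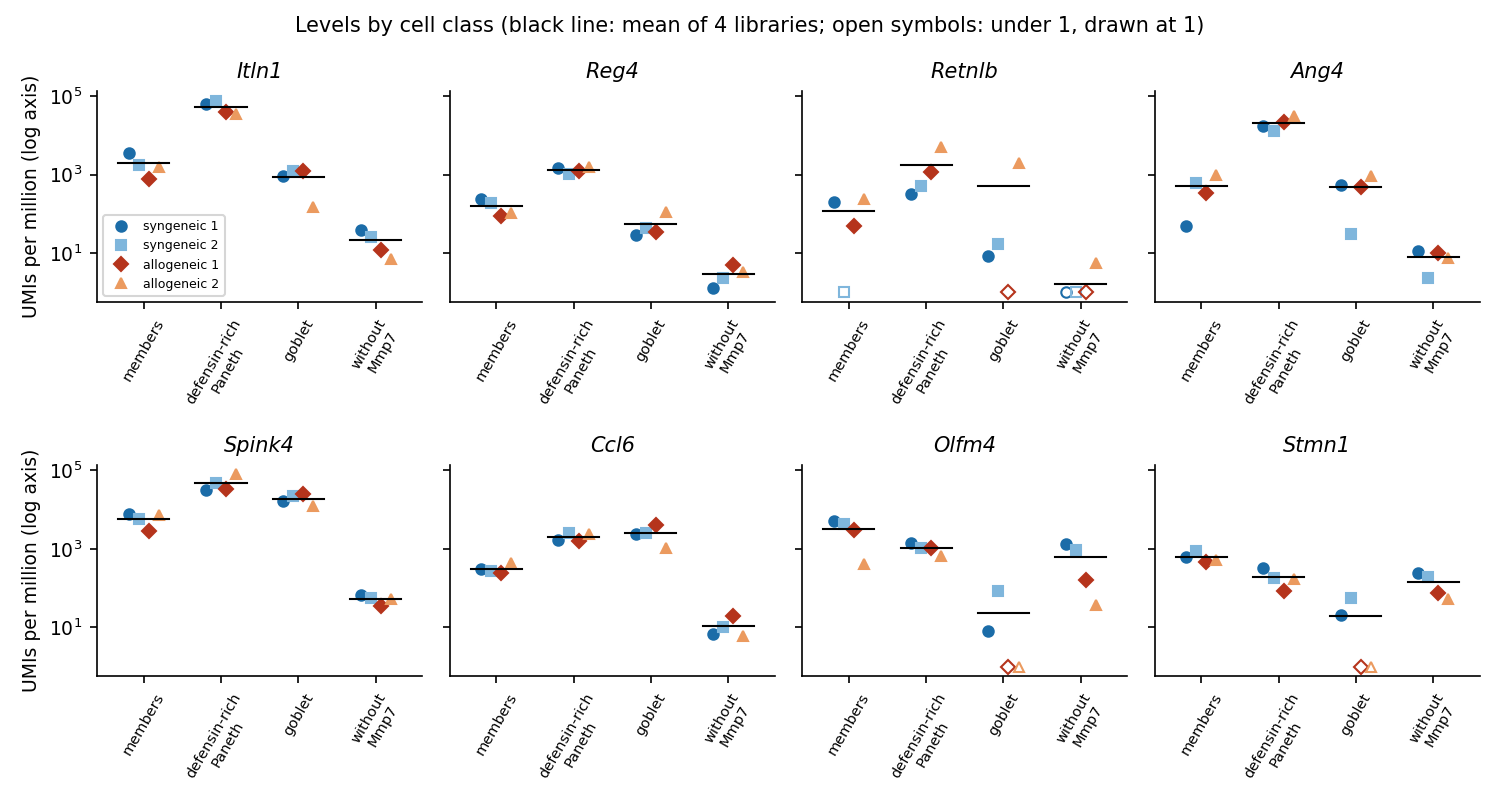
Levels (vertical log axis, CPM outside the rule genes) of 8 genes in members, defensin-rich Paneth cells, goblet cells and cells without Mmp7, with 1 point for each of the 4 libraries and the mean as a black line. Itln1, Reg4, Spink4 and Ccl6 in members lie between the Paneth cells and the cells without Mmp7, and Stmn1 is highest in members.

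Goblet cells were taken as cells under 3 Mmp7 UMIs with at least 5% goblet-gene UMIs (63, 72, 11 and 28 cells). Of 2301 genes tested against them, 909 passed (39.5%), 482 higher (20.9%) and 427 lower (18.6%) in members. Crypt-base genes were higher: Olfm4 was at 5100, 4247, 3038 and 405 CPM in members and at 8.22, 82.3, 0 and 0 in goblet cells (7.24, adjusted p = 3.0e-11). The goblet sums of the allogeneic libraries were small, and a count of 3 there stood for 103 and 34.0 CPM. Ifitm3, an interferon-inducible membrane protein also found in stem cells, was higher by 6.21 (1138, 1302, 1762 and 1806 against 16.4, 34.6, 0 and 11.3). The transcription factor Sox4 was higher by 5.77, Stmn1 by 4.94 and the stem cell gene Smoc2 by 4.47. All 6 tested MHC class II genes were higher (median 1.37), with H2-Eb1 at 2.13 and the invariant chain Cd74 at 1.60. Of 21 goblet genes outside the rule, 14 were lower and 1 higher, Ccl9, and 11 of 13 enterocyte genes were lower. The classes were split by goblet-gene share, so genes that go with it were bound to be lower to some degree. The goblet count is not independent of the rule. Klk1 was lower by -3.56, Ccl6 by -2.64 and Spink4 by -1.51. Reg4 was higher than in goblet cells (1.79, adjusted p = 0.0036).

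Cells without Mmp7 that met all other limits numbered 1173, 1039, 560 and 2469, and they mix several cell types. Their make-up differed between the libraries, with a median enterocyte-gene share per cell of 0.714, 1.95, 5.01 and 7.06%. Of 7963 genes, 3473 (43.6%) passed against them, 1429 higher and 2044 lower in members. Of 18 enterocyte genes, 17 were lower in members, and of 15 stem cell genes all 15 were higher (median 2.66 against -0.12 over all genes). Of 16 goblet genes outside the rule, 14 were higher and none lower, and of 13 Paneth genes 10 were higher and 2 lower. Itln1 in these cells was at 39.7, 26.5, 11.9 and 6.99 CPM, and Atoh1 differed by 6.39 (adjusted p = 3.0e-32). The classes were split by Mmp7, so genes that go with Mmp7 were bound to be higher in members to some degree. The same holds for the next comparison.

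A closer comparison took the 766 cells without Mmp7 from the 8 clusters with at least 10 members; it was chosen after the data were seen. Of 3872 genes, 140 passed (3.62%), 87 higher (2.25%) and 53 lower (1.37%). Of 12 goblet genes outside the rule, 11 were higher in members and none lower (median 2.35). Ccl6 was at 300, 279, 235 and 442 CPM in members and at 2.74, 5.85, 0 and 5.46 in these cells (6.26, adjusted p = 1.5e-27), and Itln1 differed by 5.21 (adjusted p = 2.6e-43). Atoh1 differed by 4.86 (adjusted p = 2.85e-10). Of 7 Paneth genes 4 were higher, of 12 stem cell genes 3, and of 18 MHC class I genes none passed. Olfm4 did not pass (-0.11, adjusted p = 0.94). Among enteroendocrine genes 5 of 8 were lower; the hormone gene Gcg stood at 0, 0, 9.42 and 22.5 CPM in members and 545, 721, 2556 and 601 in these cells (-7.0, adjusted p = 6.4e-08).

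The 2 sides of that comparison drew on different clusters, and the part of this in the result was not tested. Cluster 8 gave 553 of the 766 cells without Mmp7 but 41 members, while clusters 18, 3 and 1, with 76, 16 and 17 members, gave 4, 0 and 0. Within cluster 8 alone, with libraries pooled, the secretory genes were close: Itln1 stood at 70.4 CPM in the 41 members and 65.3 in the 553 cells without Mmp7, and Spink4 at 111 and 115. Olfm4 pooled to 5348 and 5314, but 321 and 192 of the 553 cells were from syngeneic 1 and 2. By library, Olfm4 was at 7817 in members against 5416 in syngeneic 1, and at 4939 against 2462 in allogeneic 1. Atoh1 in cluster 8 rested on few UMIs, 11.7 against 2.94 CPM when pooled. In cluster 14 the 12 members and 53 cells without Mmp7 were far apart for Itln1, at 1826 against 112, and for Spink4, at 4957 against 573. In cluster 17 the 26 members held Ido1 at 772 against 387 and Ubd at 792 against 345 CPM. These within-cluster values come from sums over cells with no test, and 32 of the 41 cluster 8 members are from 1 library.

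Between the groups, allogeneic members had higher interferon-inducible and antigen presentation genes and lower Reg3 lectins than syngeneic members. The syngeneic side rests on 26 cells, and syngeneic 2, with 9, was under the minimum of 10 cells set for this test, so the fit is an addition. Of 2716 genes tested, 30 passed (1.10%), 25 higher (0.920%) and 5 lower (0.184%). The groups did not overlap for 462 genes in each direction (17%), so a gene without overlap is common here. With Mmp7 at 2 UMIs or more, where each library had at least 19 cells and the minimum was met, 7 of the 30 genes still passed: Reg3g, Jun, B2m, H2-K1, H2-Q7, Gbp2 and Iigp1. Reg3b did not (adjusted p = 0.134).

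Of 8 tested interferon-induced effector genes, 5 were higher in allogeneic members and none was lower (median log2 difference 3.43, or 3.11 with genes absent in syngeneic members set at their bound, against 0.02 over all genes). Ido1 had 0, 0, 145 and 352 UMIs, or 0, 0, 228 and 1319 CPM, and was at least 20.6-fold higher, taking 3 counts over the syngeneic members as the floor (adjusted p = 0.023). Ubd, an interferon-inducible ubiquitin-like protein, stood at 0, 0, 160 and 806 CPM and was at least 13.1-fold higher (adjusted p = 1.3e-05). The allogeneic libraries were high for both genes and differed from each other several-fold. Cxcl9 stood at 25.0, 0, 184 and 720 CPM (4.58 ± 0.72 SE, adjusted p = 2.5e-07), the syngeneic values resting on 2 UMIs. Cxcl10 stood at 12.5, 0, 105 and 296 (4.36, adjusted p = 0.0010). Bst2, whose upstream window is shown above, was at 37.5, 31.0, 141 and 281 (2.51 ± 0.71 SE, adjusted p = 0.038). None of these 5 effector genes passed with Mmp7 at 2 UMIs or more, where the adjusted p was 0.997 for Ido1, 0.212 for Ubd, 0.0985 for Cxcl9, 0.0855 for Cxcl10 and 0.18 for Bst2. Bst2 passed in only 2 of 12 alternatives and Cxcl10 in 6 of 11.

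Some antigen presentation genes were higher, and B2m, H2-K1 and H2-D1 had more molecules behind them. Of 18 tested MHC class I and immunoproteasome genes, 6 were higher and none lower (median 1.70). B2m, the light chain of MHC class I, stood at 275, 620, 1834 and 2488 CPM (2.34 ± 0.40 SE, adjusted p = 2.8e-06). The heavy chain H2-K1 stood at 650, 899, 2107 and 2623 (1.62 ± 0.37, adjusted p = 0.0023), H2-D1 at 575, 465, 1639 and 2061 (1.8), and the peptide transporter Tap1 at 37.5, 31.0, 265 and 206 (2.73). In all of these both allogeneic libraries lay above both syngeneic ones. Of 12 interferon-gamma GTPases and regulators 2 passed, Gbp2 (12.5, 31.0, 206 and 296 CPM, 3.73) and Iigp1 (1.90). Of 9 MHC class II genes 2 passed, H2-DMb2 and H2-Aa, the latter at 612, 434, 1443 and 1383 (1.40). Cd74, with 3087, 4433, 5807 and 7859, did not pass (0.85, adjusted p = 0.39). Gbp2 rests on 1 UMI in each syngeneic library, and Tap1 lay at or under the level of 3 UMIs there. With Mmp7 at 2 UMIs or more, B2m, H2-K1, Gbp2 and Iigp1 passed. H2-D1, Tap1, H2-Aa and H2-DMb2 did not (adjusted p = 0.0911, 0.0855, 0.24 and 0.136).

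Early-response genes, switched on within minutes of a stimulus and often by cell dissociation, were also higher in allogeneic members. Egr1, an immediate early transcription factor, stood at 0, 0, 355 and 172 CPM (at least 11.3-fold higher) and Atf3, a stress-response factor, at 0, 0, 148 and 206 (at least 6.17-fold higher). Jun, a subunit of AP-1, stood at 37.5, 62.0, 545 and 506 (3.52 ± 0.58 SE, adjusted p = 7.8e-07), and Fos at 25.0, 93.0, 383 and 240 (2.75). Egr1, Atf3, Jun and Fos were 4 of the 12 tested early-response and heat-shock genes, with none lower. The bounds for Egr1 and Atf3 hold for the main rule only. Over the alternatives their log2 differences went down to 2.49 and 2.08, under these bounds. With Mmp7 at 2 UMIs or more, Egr1, Atf3 and Fos did not pass (adjusted p = 0.573, 0.212 and 0.376), while Jun did. Egr1, Atf3 and Jun are among the leading genes of clusters 15 and 1, which hold 21 and 17 allogeneic members and no syngeneic ones.

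Reg3b and Reg3g, secreted antibacterial lectins, were the clearest lower genes. Reg3b stood at 8662, 22166, 2240 and 1304 CPM (-3.10 ± 0.34 SE, adjusted p = 1.4e-15) and Reg3g at 5275, 10138, 1033 and 1428 (-2.65 ± 0.35, adjusted p = 2.9e-11). In syngeneic 2 a single cell held 590 of the 715 Reg3b UMIs and 230 of the 327 Reg3g UMIs, so its high level rests on that cell. With called doublets left out the differences were -1.93 for Reg3b and -1.86 for Reg3g, and without syngeneic 2 they were -2.19 and -2.01; all 4 passed. In syngeneic 1 the UMIs were spread over 16 of 17 cells for each gene. The secreted ribonuclease Rnase1 was at 462, 248, 69.1 and 26.2 (-2.84 ± 0.49, adjusted p = 3.2e-06), the potassium channel subunit Kcne3 at 237, 341, 97.3 and 60 (-1.76), and Clca3b at 587, 806, 352 and 78.7 (-1.59, adjusted p = 0.019). With Mmp7 at 2 UMIs or more, Rnase1, Kcne3 and Clca3b did not pass (adjusted p = 0.134, 0.287 and 0.96). DESeq2 called Rnase1 but not Kcne3 or Clca3b (adjusted p = 0.651 and 0.941). No gene of 11 Paneth, 17 goblet, 11 stem cell or 11 enterocyte genes passed between the groups. Itln1 came nearest among the genes named for the cells (-1.20, adjusted p = 0.057).

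The group values were also read in the 5 clusters that hold members of both groups (3, 4, 8, 10 and 17), which contain all 26 syngeneic members and 65 and 16 of the allogeneic ones; this was added after the data were seen and is not tested. There Ido1 stood at 0, 0, 201 and 1583 CPM, Ubd at 0, 0, 225 and 938, Gbp2 at 12.5, 31.0, 208 and 313, and B2m at 275, 620, 1802 and 2247. Reg3g stood at 5275, 10138, 1408 and 2462 and Reg3b at 8662, 22166, 2601 and 1700. For these 6 genes, picked from those called over all members, the groups did not overlap. The syngeneic values are the same as over all members, since no syngeneic member was left out. The share of all genes without overlap was 17% in each direction over all members and was not counted in these clusters. The libraries were still unlike in make-up: 11 of the 16 allogeneic 2 members lay in cluster 17, led by Ly6c1, Cxcl10 and Cxcl9, which holds 1 syngeneic member, and cluster 8 gave 32 allogeneic 1 members and none of allogeneic 2. For the early-response genes they came close: Jun was at 37.5, 62.0, 137 and 234, Egr1 at 0, 0, 70.4 and 58.6, and Fos, at 25.0, 93.0, 31.7 and 39.1, overlapped.

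**Figure D5:**
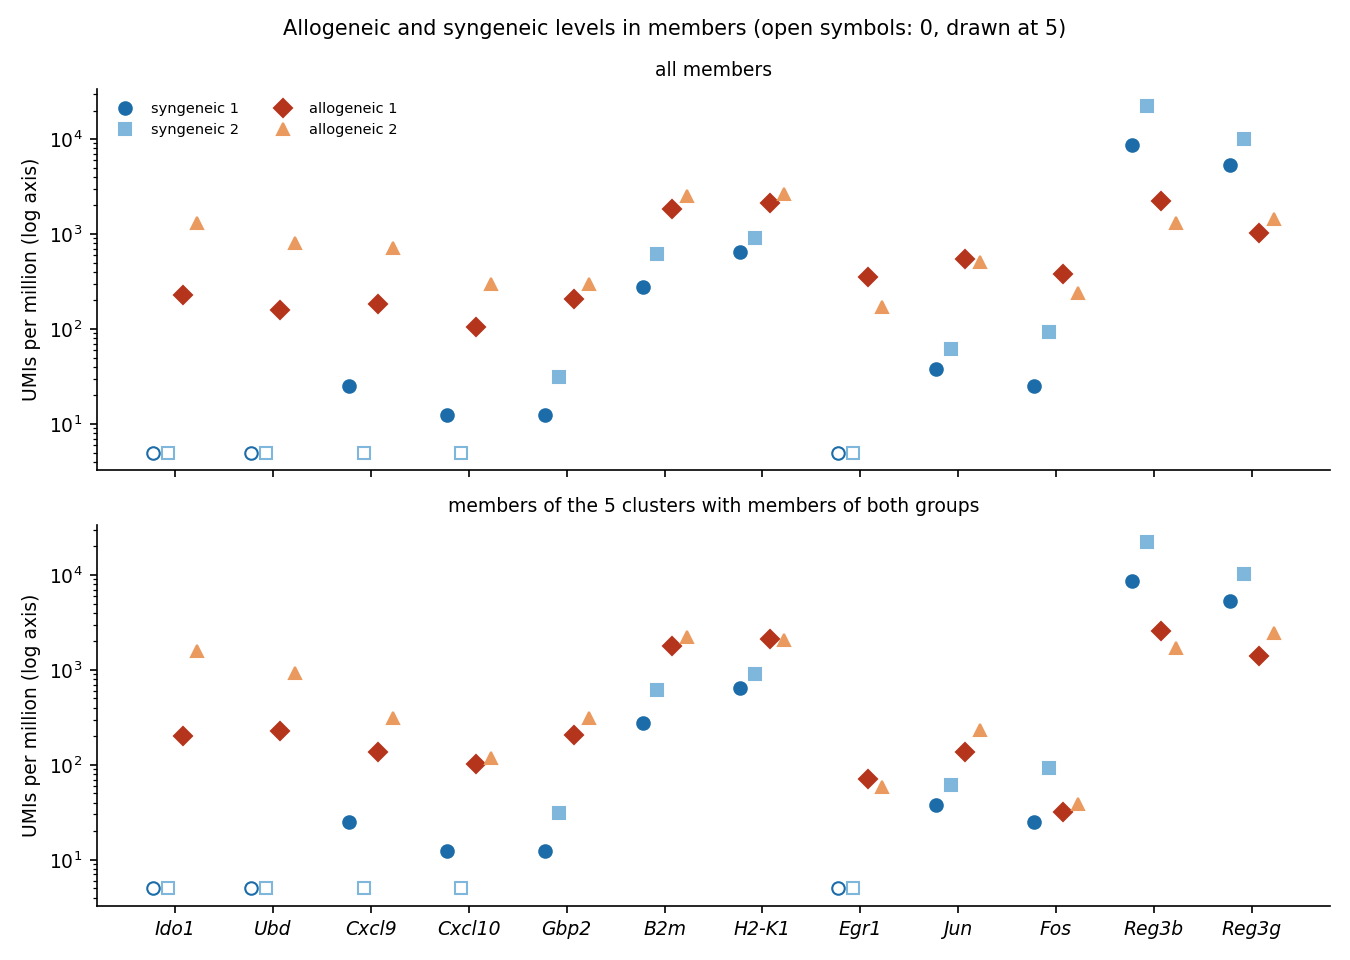
Levels (vertical log axis, CPM) of 12 genes in members by library, for all members (top) and for members of the 5 clusters that hold both groups (bottom); open symbols are zeros drawn at 5. Both allogeneic points lie above both syngeneic points for Ido1 to H2-K1 and below them for Reg3b and Reg3g in both panels, while Fos separates in the top panel only.

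Other gene groups gave few calls between the groups. The injury-linked genes Ly6a (62.5, 155, 402 and 1844 CPM, 3.50) and S100a6 (188, 310, 330 and 1833, 2.14) were higher, 2 of the 3 tested regenerative and fetal-like genes. S100a6 rests on allogeneic 2, without which it was at 0.57 (adjusted p = 0.994), and it passed in 4 of 12 alternatives. No gene passed among 12 S-phase, 7 Notch and secretory fate, 6 Wnt pathway, 6 cell death or 3 p53 target genes, and of 16 genes of the unfolded protein response only Atf3 did.

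Markers of other cell types were unequal between the libraries' members. T and NK cell genes made up 0, 0, 0.00186 and 0.00184% of the summed UMIs, with 14, 14, 8 and 13 of the 14 genes at 0. Enterocyte genes made up 0.0492, 0.216, 0.128 and 0.713%, enteroendocrine genes 0.00123, 0.00608, 0.146 and 0.0221%, and tuft genes 0, 0, 0.00761 and 0.000369%. Enteroendocrine genes thus stood higher in allogeneic 1 members than in the cells without Mmp7 (0.0465%) or the Paneth cells (0.0062%) of that library, and 15 of these 16 genes were at 0 in each syngeneic library. The part of these cell types in the group differences was not tested.

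Leaving out 1 library at a time tested how far these calls rest on single pools. Of the 30 genes, 5 passed in all 4 such fits: Reg3g, Reg3b, Ido1, Ubd and Cxcl9. Without syngeneic 1, which leaves the 9 cells of syngeneic 2, 11 genes passed in all, and without allogeneic 1 it was 76. DESeq2 called 9 of the 30, and Reg3g alone passed in every alternative run. Reg3b, Ido1 and Ubd did not pass with Mmp7 at 2 or 5 UMIs or with defensins under 2%, and Cxcl9 did not at either Mmp7 limit.

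Of the 25 genes higher in allogeneic members, 21 matched the RefSeq promoter table. The interferon element occurred in the windows of 4 (B2m, Bst2, Cxcl10 and Gbp2), AP-1 in 4 (Cxcl10, Gbp2, Mt2 and Upp1) and the Tcf motif in 2 (Mt2 and Ubd). These counts describe letters near the start and were not tested against other genes.

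Whether the allogeneic difference in members was unlike that in defensin-rich Paneth cells was tested with the interaction of class and group, and 20 of 4608 genes passed (0.434%), 8 in the higher direction (0.174%) and 12 in the lower direction (0.260%). Reg3g differed: Paneth cells held 7307, 9827, 8103 and 6888 CPM, with overlapping groups, against 5275, 10138, 1033 and 1428 in members (interaction -2.30, adjusted p = 7.6e-17). In the main fit, MHC class II genes had a larger group difference in Paneth cells. Cd74 stood there at 1440, 1210, 7380 and 11971 CPM, against 3087, 4433, 5807 and 7859 in members (-1.84, adjusted p = 3.6e-10). H2-Aa differed by -1.82, H2-Ab1 by -1.44 and H2-Eb1 by -1.34, so 4 of 9 class II genes differed in this direction and none in the other. DESeq2 called none of these 4 (adjusted p = 0.0692 for Cd74 and 0.375 for H2-Aa). With Mmp7 at 5 UMIs or more none passed (0.467 for Cd74, 0.692 for H2-Aa). Of 12 alternatives, Cd74 passed in 9, H2-Aa in 7, H2-Ab1 in 6 and H2-Eb1 in 5, and all terms stayed negative. No MHC class I gene of 19 and no interferon-induced effector of 10 passed this test.

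Some interaction calls rest on a few cells. Fabp2, an intestinal fatty-acid-binding protein of enterocytes, stood at 138, 341, 163 and 3834 CPM in members (interaction 4.13), and 2 cells held 817 of its 1023 UMIs in allogeneic 2. With called doublets left out it did not pass (adjusted p = 0.73). Of the 20 genes, 2 passed in all leave-one-out fits, Fabp2 and Reg3g, and leaving out allogeneic 2 left 2 calls.

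Against cells without Mmp7, 25 of 9408 genes passed the interaction test (0.266%), 20 higher (0.213%) and 5 lower (0.0531%). Reg3b (-2.35) and Reg3g (-1.71) had lower terms in members. With called doublets left out neither passed (-1.25 and -0.939). Within cluster 8 the 321, 192, 27 and 13 cells without Mmp7 also held less of both genes in the allogeneic libraries. Reg3g stood there at 4843, 4691, 1494 and 2604 CPM and Reg3b at 8857, 7895, 3724 and 5858, without a test. Olfm4 stood at 1352, 958, 160 and 37.9 CPM in the cells without Mmp7, against 5100, 4247, 3038 and 405 in members (interaction 1.85, adjusted p = 2.3e-05). The sodium-potassium-chloride transporter Slc12a2 (1.95), Ifitm3 (1.66) and Jun (2.68) also differed. Of 12 alternatives, Olfm4 passed in 9, Slc12a2 in 8, Ifitm3 in 6 and Jun in 3. The cells without Mmp7 mix cell types in unequal parts by library. Stem cell genes made up 0.188, 0.134, 0.0320 and 0.00920% of their summed UMIs. Enterocyte genes had a median share per cell of 0.714, 1.95, 5.01 and 7.06% there. The part of this make-up in the interaction terms was not tested. The term was also higher for the enteroendocrine genes Chgb, Ghrl and Cck and for Egr1 and Atf3, all without a UMI in syngeneic members, so their fitted terms are no measure of size. Chgb had 0, 0, 449 and 32 UMIs in members, in 10 and 2 cells of the allogeneic libraries, and stood at 42.1, 61.3, 17.4 and 8.82 CPM in the cells without Mmp7 (adjusted p = 1.2e-14). Ghrl had 0, 0, 123 and 0 UMIs and Cck 0, 0, 33 and 4. Chgb was the 1 gene that DESeq2 called (adjusted p = 0.0028), and with Reg3b it passed with each library left out in turn, but it did not pass with Mmp7 at 2 or 5 UMIs. Leaving out 1 library left 9 to 14 calls.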

How the data were processed

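Crypt cells from 4 pooled libraries (2 syngeneic, 2 allogeneic) were profiled by 10x 3' single-cell RNA sequencing; the authors deposited raw UMI counts per gene and cell barcode. Per the submitters' processing notes, Cell Ranger 2.1.1 and build mm10 were used, while the matrix headers give software version 3.1.0; the annotation is not given in the sources used here. From these counts, barcodes with at least 500 genes, at least 1000 UMIs and at most 20% mitochondrial UMIs were kept. The members and gene lists were chosen with earlier results of these data known.

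Counts were summed per cell class and library. The 38 rule genes were left out of tests and library sizes. edgeR 4.0.16 (filterByExpr, TMM, robust quasi-likelihood fit, Benjamini-Hochberg) was fitted across all genes, with library as a block for comparisons between classes; it was checked on simulated counts. DESeq2 1.42.0 was an alternative, with other limits on Mmp7, defensins and mitochondria, no low-count filter, no called doublets, and each library left out. The test between groups within members had been set to need 10 cells in each library; syngeneic 2 had 9, so it was run as an addition. Thinning, exact binomial and Poisson intervals (95%) and the exact permutation test used numpy 2.4.6 and scipy 1.17.1 in Python 3.11.15. Cells were clustered with scanpy 1.11.5 (2000 variable genes, 30 components, 15 neighbours, resolution 1), and doublets were called with Scrublet (89 of 12285). Named genes were Mmp7, Reg4, Itln1, Retnlb and the rule genes; per comparison the 10 largest changes each way among called genes with a mean of at least 50 CPM and 1 direction in every library (or no overlap); and per list up to 4 called and 2 uncalled members. The genes named as leading a cluster, in the figures, in values within clusters or in motif counts and outside that rule were chosen after their values were seen. Promoter windows are RefSeq's (GRCm38.p6), shown only where no annotated exon overlaps.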

Additional observations from a re-analysis of the deposited data

Results flagged for a closer look

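The difference between allogeneic and syngeneic libraries was itself different in members from that in a comparison class for the genes below, by edgeR's interaction test (adjusted p under 0.05). Values are interaction terms on the log2 scale, members minus the comparison class.

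Against defensin-rich Paneth cells, 10 list genes had a lower term in members. The lectins were Reg3g (-2.30) and Reg3b (-1.59), the latter at -0.616 and not passing with called doublets left out. The MHC class II genes were Cd74 (-1.84), H2-Aa (-1.82), H2-Ab1 (-1.44) and H2-Eb1 (-1.34), none of them called by DESeq2. The Paneth lipase genes Pnliprp2 (-2.81) and Clps (-2.57) rest on 20 and 28 member UMIs in all. Guca2a, which encodes guanylin, had -1.8 and Retnlb -2.89, and the Retnlb UMIs of the syngeneic members came almost all from 1 cell, which held 15 of 16. The higher terms were Manf (1.49), a chaperone of the endoplasmic reticulum, Tubb4b (2.09), a tubulin, the enterocyte genes Apoa1 (2.13) and Fabp2 (4.13), and Tac1 (5.28), an enteroendocrine peptide gene with 141 of its 148 member UMIs in allogeneic 1.

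Against cells without Mmp7, the lower terms were Pnliprp2 (-5.05), Reg3b (-2.35), Guca2a (-2.07) and Reg3g (-1.71). That class mixes cell types in unequal parts by library, and the part of this in the terms was not tested. The higher terms were Ifitm3 (1.66), Olfm4 (1.85), Slc12a2 (1.95), Jun (2.68) and the secretory transcription factor Foxa3 (2.99). These passed in 6, 9, 8, 3 and 5 of 12 alternatives in the same order. Chgb, Ghrl, Cck, Egr1 and Atf3 also passed in the higher direction, with no UMI in syngeneic members, and so did Chgb against Paneth cells.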

How the results depend on the processing

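The member share was higher in the allogeneic libraries under every alternative run (log2 ratio 1.88, without allogeneic 1, to 3.75, with Mmp7 at 5 UMIs). Of the values for named genes under alternatives, 2693 kept direction and call, 779 lost the call and 3 reversed: Fabp2 against cells without Mmp7 became 1.56 with cells of the same clusters, the interaction with Paneth cells for Chgb became -2.40 with Mmp7 at 2 UMIs, and that for Retnlb ranged from -3.71 to 5.91 with 1 library left out, positive without syngeneic 1. Counts of called genes moved as follows, and the cause was not tested. Allogeneic against syngeneic members: DESeq2 9, Mmp7 at 2 UMIs 7, at 5 UMIs 10, defensins under 2% 13, 1 library left out 11 to 76. Against Paneth cells: DESeq2 244, no low-count filter 330, Mmp7 at 5 UMIs 458, no library block 249, 1 library left out 236 to 639. Against cells without Mmp7: mitochondrial limit 10% 1680, same clusters 140, 1 library left out 2091 to 3791. Against goblet cells: no filter 539, 1 library left out 707 to 922. Interaction with Paneth cells: DESeq2 2, Mmp7 at 2 UMIs 10, at 5 UMIs 11, defensins under 2% 13, 1 library left out 2 to 20. Interaction with cells without Mmp7: DESeq2 1, Mmp7 at 2 UMIs 75, defensins under 2% 9, mitochondrial limit 10% 1, doublets left out 14, 1 library left out 9 to 14. No paired analysis was possible because the labels give no replicate numbers that link libraries of the 2 groups.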
